A study of Mus musculus with 8 samples.

Results

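The peaks of open chromatin around 7 marker genes of the naive pluripotent state, Zfp42, Dppa2, Dppa3, Dppa4, Dppa5a, Utf1 and Tdh, were compared between control and paused mouse embryonic stem cells. A peak was taken when its centre lay inside the span of one of these genes or within 50 kb of it, and it was given to the protein-coding gene whose span was nearest. This gave 69 peaks nearest to the 7 genes, and a further 44 in the same windows that lay nearer to another gene, of 134407 peaks in all. At the edge of the window, a peak 49390 bp from Dppa2 was taken, with values of 12.9 ± 2.51 in control and 24.0 ± 5.07 in paused cells, and a peak 54331 bp away was not, with values of 89.7 ± 8.38 in control and 77.8 ± 15.0 in paused cells (SD, n = 4).

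The cells were of the wild-type E14 line, grown on gelatin in medium with serum and LIF, the cytokine that keeps mouse embryonic stem cells undifferentiated. The 4 control libraries came from the control condition, and the 4 paused libraries from cells given INK128, which blocks the mTOR kinase, at 200 nM for 24 h. ATAC-seq, in which the Tn5 transposase cuts accessible DNA and attaches sequencing adapters, was run on 50000 live cells per library. All libraries are of a single cell line, and no label says whether the replicates were separate cultures, so that p-values measure the spread between these libraries, which may be technical. In bulk samples, a change in the share of cells with an open site and a change in how open it is in each cell cannot be told apart.

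In mouse embryonic stem cells the naive state resembles the epiblast before implantation, and the genes described here are widely used markers of undifferentiated cells. Zfp42, also called Rex1, encodes a zinc finger protein and is the standard reporter of the naive state. Dppa2 and Dppa4 are neighbouring genes for a pair of SAP domain proteins that bind chromatin together, Dppa3 (Stella) encodes a maternal factor that protects DNA methylation in the early embryo, and Dppa5a encodes an RNA-binding protein of the KH type. Utf1 encodes a chromatin-bound protein, and Tdh encodes threonine dehydrogenase, the mitochondrial enzyme with which mouse embryonic stem cells turn threonine towards glycine and acetyl-CoA.

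Of the 7 genes, 2 have a start site in the sequence table from RefSeq (GRCm38.p6), and their upstream sequences are shown because each has a strong peak at its start site, called higher at Zfp42 and not called at Utf1. Each run is the 250 bases before the start site, 5′ to 3′ on the strand of the gene, and capitals mark bases that lie inside the nearest ATAC-seq peak. The Zfp42 stretch is at chr8:43307010-43307259 (minus strand) and the Utf1 stretch at chr7:139943606-139943855 (plus strand).

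Zfp42: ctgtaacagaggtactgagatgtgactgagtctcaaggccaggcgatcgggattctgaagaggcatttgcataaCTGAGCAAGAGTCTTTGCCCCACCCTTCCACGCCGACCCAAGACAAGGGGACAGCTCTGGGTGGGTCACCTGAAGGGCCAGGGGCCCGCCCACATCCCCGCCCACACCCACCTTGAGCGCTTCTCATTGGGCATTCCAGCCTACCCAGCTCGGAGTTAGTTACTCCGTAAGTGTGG

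Utf1: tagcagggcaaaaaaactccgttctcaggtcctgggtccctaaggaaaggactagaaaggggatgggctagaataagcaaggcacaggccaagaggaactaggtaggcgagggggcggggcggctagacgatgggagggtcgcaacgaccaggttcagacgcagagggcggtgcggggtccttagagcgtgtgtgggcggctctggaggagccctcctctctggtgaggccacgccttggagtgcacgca

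The Zfp42 peak covered 176 of these bases, its centre 76 bp before the start site. The Utf1 peak covered none of them, and its centre was 215 bp after the start site, inside the gene. Short motifs were searched on both strands. The Zfp42 stretch held, on the other strand, the octamer letters ATGCAAA from base -185 to -179, just outside the peak, and inside the peak the CACCC letters GGGTGTG (-74 to -68, sharing a base with a GC box), the letters CCAAT (-51 to -47) and the GC box letters GGGCGG at -91 and -79. The Utf1 stretch held GGGCGG 4 times on the printed strand, at -138, -133, -85 and -56, the first 2 overlapping by a base, and none of the other 6 motifs. Among all 32851 upstream stretches of this length in the table, 4.12% held ATGCAAA, 6.93% GGGTGTG, 33.8% CCAAT and 32.7% GGGCGG. The E-box CACGTG (6.02% of stretches), the nuclear receptor letters AAGGTCA (4.08%) and the Stat letters TTCCNGGAA (0.913%) were in neither. A match is a description of the letters and not evidence of binding.

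Values are the deposited ones, reads in a peak of 201 bp divided by a factor per library, so that peaks of different genes compare per length. Reads in peaks ranged from 4434037 to 21161767 per library, with control replicate 1 the deepest and the other 7 libraries at most at 7238935. A peak counts as changed, or called, when the Benjamini-Hochberg adjusted p of limma-trend on log2(value + 1), over the 127402 peaks whose mean value reached 10, was under 0.05. Changes are paused minus control on this log2 scale, which understates the change of weak peaks. The median over all tested peaks was 0.10. It was not subtracted from the changes given, and each test was against a change of 0, so that calls include this general shift. As a check of the label, 8 of 9 stem cell markers had a peak within 2 kb of a gene end, with a median value of 186 per marker. A marker without such a peak counted as 0, and Zfp42, Utf1 and Dppa5a are themselves among these markers. The medians were 71.3 for primitive endoderm (4 of 6 with a peak), 22.0 for trophoblast (5 of 5), 36.5 for fibroblast (5 of 6) and 207 for neural markers (3 of 4). Gene-end accessibility thus did not separate the stem cell from the neural list. No marker of these 4 other cell types was called, and the summed values of the fibroblast markers were 265 to 335 in control and 328 to 366 in paused libraries.

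Paused cells had higher accessibility at 13 and lower accessibility at 1 of the 66 tested peaks of the 7 genes. The called peaks belonged to Zfp42 (7 higher, 1 lower), Dppa2 (3 higher), Tdh (2 higher) and Dppa3 (1 higher), and none to Dppa4, Dppa5a or Utf1. For these 3 genes edgeR (with either scaling) and DESeq2 also called 0 peaks, and limma-trend gave 0, 0 and 2 peaks at an unadjusted p under 0.05. DESeq2 also called 0 peaks for Dppa2 and Tdh, and edgeR with TMM called 1 for each of them. The share called higher was 19.7%, against 11.0% of all tested peaks, and 2.91% of all tested peaks were called lower. Without Zfp42, 6 of the 46 tested peaks of the other 6 genes were called higher, 13.0%, which is near the background. Scaling moved these counts: after TMM rescaling, which sets libraries level on the bulk of their peaks, 6 were called higher and 2 lower (5.99% of all peaks higher), and after a loess correction on peak strength 5 and 2 (5.10%). The median change of the 66 peaks was 0.19, and 0.09 and 0.08 in those 2 fits, where the median of all peaks was 0.00 and -0.01. Leaving out control replicate 3, paused replicate 2 or paused replicate 4 brought the number called in either direction from 14 to 9, 7 and 9. In those fits 8.52%, 8.11% and 7.02% of all tested peaks were called higher. In 13 of the 66 peaks (19.7%) all 4 paused values lay above all 4 control values, against 13.0% of all tested peaks. These were not the same 13 peaks as those called higher, although the sets overlapped.

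**Figure D1:**
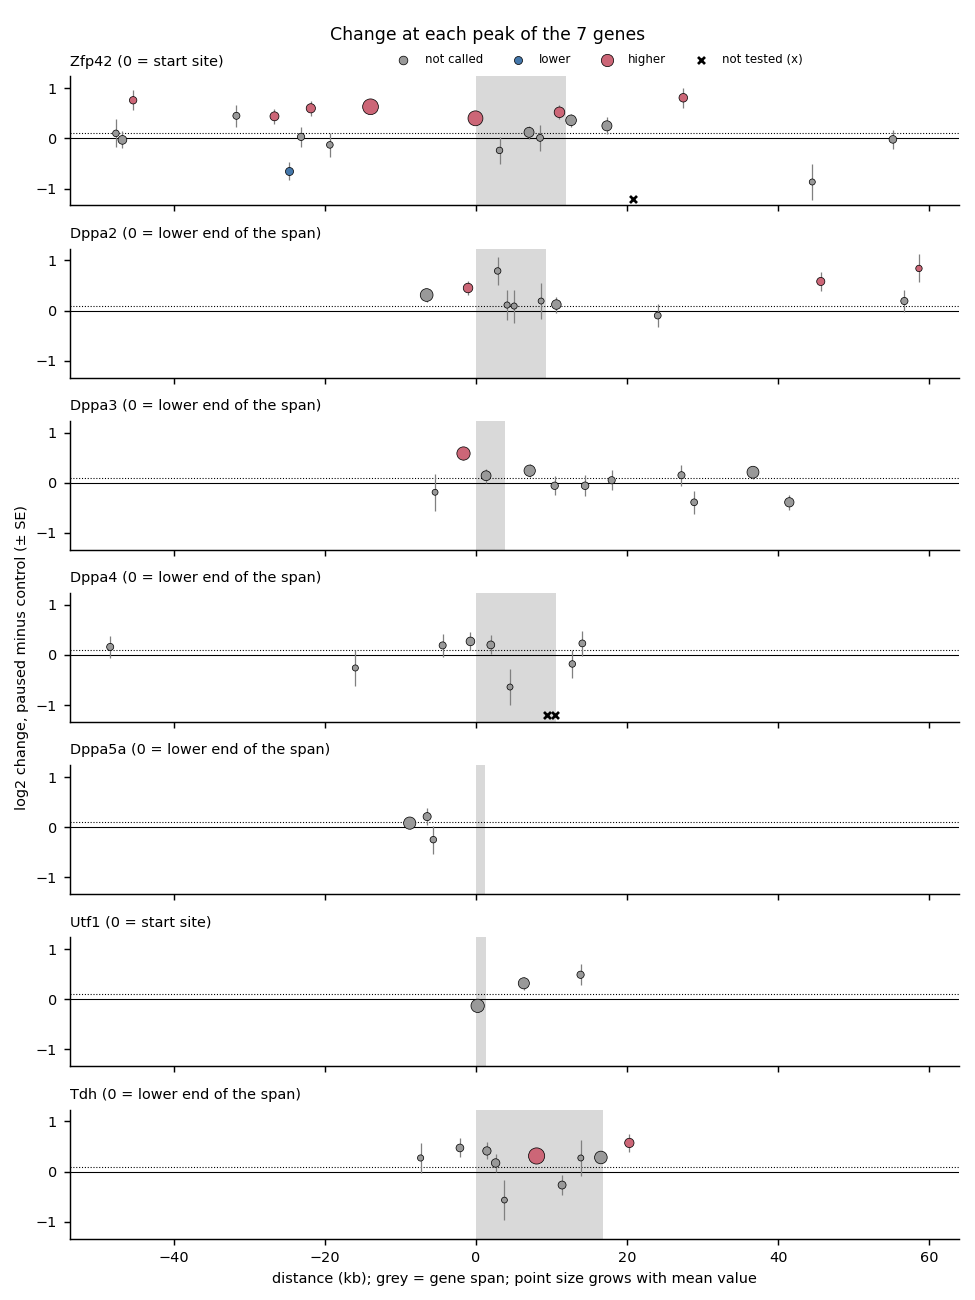
Log2 change (paused minus control, ± SE) of each peak against its distance in kb from the start site (Zfp42, Utf1) or from the lower end of the gene span (the other 5 genes), with the gene span in grey, the median of all tested peaks dotted, point size growing with the mean value and crosses for untested peaks. Red points, called higher, lie mainly around Zfp42, which has 20 of the 66 tested peaks. Dppa4, Dppa5a and Utf1, with 8, 3 and 3 tested peaks, have no coloured point.

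Zfp42 had 21 peaks, the most of the 7 genes, 4 of them inside the gene (chromosome 8, 43295067 to 43307009). Its strongest peak lay 13965 bp before the start site (chromosome 8, 43320874 to 43321074) and was stronger than 97.4% of all peaks. There the control values were 187, 205, 212 and 253 and the paused values 314, 331, 330 and 348. Every paused library was above every control library, and the mean went from 214 ± 27.8 to 331 ± 14.0 (n = 4, ± SD; a change on the log2 scale of 0.63, SE 0.11, adjusted p = 1.14e-04, limma-trend). This was the smallest adjusted p among the 66 peaks, and the peak was called in each of the 17 other fits made, with log2 changes from 0.43 to 0.72.

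The peak at the Zfp42 start site (43306985 to 43307185), whose bases are in capitals above, rose less. The control values were 217, 176, 227 and 210, and the paused values 254, 279, 281 and 279. The groups did not overlap, and the mean went from 207 ± 22.3 to 273 ± 12.9 (n = 4, ± SD; a change on the log2 scale of 0.40, SE 0.11, adjusted p = 0.0117, limma-trend). This call ended under TMM rescaling (log2 0.30, adjusted p = 0.0642) and loess correction (0.19, adjusted p = 0.236), in edgeR with TMM (0.29, adjusted p = 0.0705) and in DESeq2 (0.29, adjusted p = 0.150). Near the far end of the gene a peak inside the span (43295863 to 43296063) held 81.6, 81.2, 86.4 and 94.0 in control and 98.0, 148, 121 and 130 in paused libraries, again without overlap (log2 change 0.52, SE 0.14, adjusted p = 0.00872, limma-trend). That call was lost in DESeq2 (adjusted p = 0.104), after loess correction (adjusted p = 0.124) and without paused replicate 2 (adjusted p = 0.0525). The other 3 peaks inside Zfp42 had log2 changes from -0.24 to 0.12 and were not called. Whether peaks inside a gene are exonic or intronic was not analysed here.

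Upstream of Zfp42, called peaks a few kb apart moved in opposite directions. A peak 21867 bp before the start site (43328776 to 43328976) held 58.8, 53.8, 59.3 and 55.8 in control and 72.7, 91.5, 99.3 and 85.5 in paused libraries (log2 change 0.60, SE 0.15, adjusted p = 0.00488, limma-trend), a call that ended in DESeq2 (log2 0.49, adjusted p = 0.0970) and after loess correction (0.43, adjusted p = 0.0580). A peak 24819 bp before it (43331728 to 43331928) held 44.9, 57.3, 66.0 and 63.2 in control and 31.1, 39.4, 31.0 and 44.5 in paused libraries (log2 change -0.65, SE 0.18, adjusted p = 0.0125, limma-trend). This was the only called fall among the 66 peaks in the limma-trend fit, and its call held in each of the 16 other fits that tested it. A peak between them, 23158 bp before the start site, had a log2 change of 0.03. The ratio of the fallen peak to the risen one, 2952 bp away, does not depend on the factor per library, though a correction on peak strength could change it. It was 0.76, 1.07, 1.11 and 1.13 in control and 0.43, 0.43, 0.31 and 0.52 in paused libraries, with no overlap. The ratio was chosen after its values were seen and was not tested.

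A further 1860 bp upstream a peak (43333588 to 43333788) went from 56.5 ± 9.60 to 76.3 ± 4.45 (n = 4, ± SD; a change on the log2 scale of 0.44, adjusted p = 0.0491, limma-trend), a call that was lost in 14 of 17 other fits, including those without each library but control replicate 4 (log2 change 0.35 to 0.50, adjusted p at most 0.160). The farthest called peak, 45387 bp before the start site (43352296 to 43352496), held 27.7, 28.7, 25.4 and 22.0 in control and 36.9, 50.5, 43.4 and 48.0 in paused libraries, without overlap (log2 change 0.76, SE 0.20, adjusted p = 0.00755, limma-trend). It was lost in DESeq2 alone among 16 other fits (adjusted p = 0.120). Beyond the other end of the gene, 27433 bp after the start site (43279476 to 43279676), the control values were 33.9, 57.3, 27.1 and 48.5 and the paused values 84.2, 45.7, 69.8 and 94.9. Paused replicate 2 lay among the control libraries, and the log2 change was 0.81 (SE 0.20, adjusted p = 0.00531, limma-trend), a call kept in all 17 other fits.

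**Figure D2:**
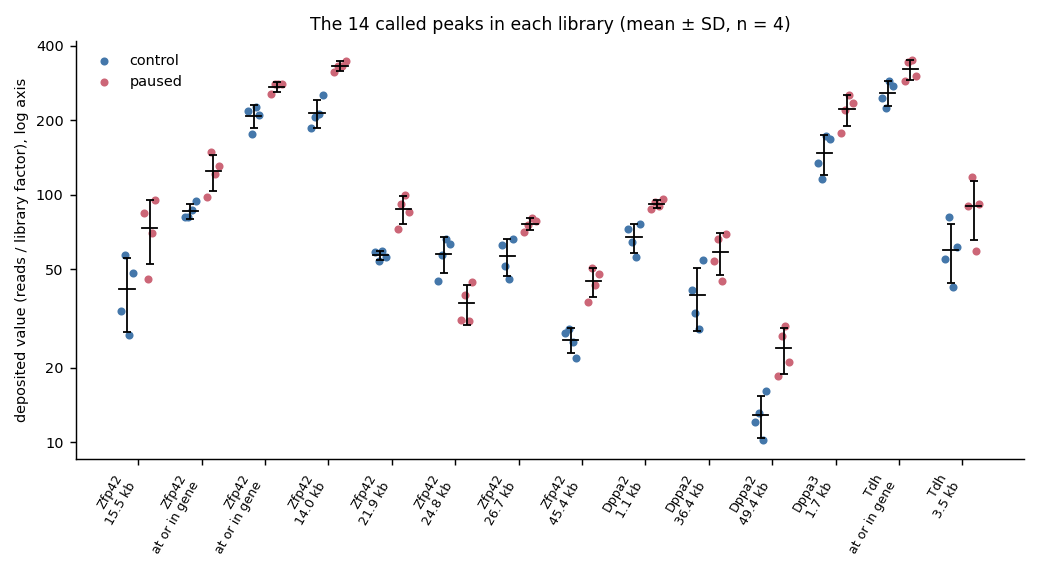
Deposited value (reads divided by the library factor, log axis) of the 14 called peaks in each of the 4 control (blue) and 4 paused (red) libraries, with mean and SD, labelled by gene and distance from its span. The paused mean is higher at 13 peaks and lower at the Zfp42 peak 24.8 kb from the gene. The groups overlap at the Tdh peaks, at a Dppa2 peak and at a Zfp42 peak.

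Dppa2 and Dppa4 lie next to each other on chromosome 16, at 48310274 to 48319513 and 48283735 to 48294292. The strongest peak of Dppa2, between the genes and 6536 bp from Dppa2 (48303638 to 48303838), held 127, 140, 146 and 187 in control and 170, 180, 174 and 217 in paused libraries. Replicate 4 was the highest in each group, and its control library reached into the paused range. The peak was not called (log2 change 0.31, SE 0.13, adjusted p = 0.0882, limma-trend). It was called without control replicate 4 (log2 change 0.42, adjusted p = 0.0303). With all libraries it was called in edgeR with the deposited factors (0.35, adjusted p = 0.0427) and in limma-trend with the replicate number as a block (0.31, adjusted p = 0.0395). A peak 1057 bp from the lower end of Dppa2 (48309117 to 48309317) held 72.6, 64.5, 55.9 and 76.4 in control and 87.7, 93.1, 90.0 and 96.1 in paused libraries. These groups did not overlap (log2 change 0.45, SE 0.14, adjusted p = 0.0296, limma-trend). The call was lost in 8 of 17 other fits, among them TMM rescaling (adjusted p = 0.106) and the fits without control replicate 2 or 3 or paused replicate 2 or 4 (log2 change 0.36 to 0.44, adjusted p at most 0.108).

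The other called peaks of Dppa2 lay far from the gene. At 36393 bp (48355806 to 48356006) the mean went from 39.4 ± 11.2 to 58.6 ± 11.2 with overlapping groups (n = 4, ± SD; a change on the log2 scale of 0.58, adjusted p = 0.0338, limma-trend), and the call was lost in 9 of 16 other fits, among them those without control replicate 1, 2 or 3 or paused replicate 2 or 4 (log2 change 0.45 to 0.61, adjusted p at most 0.128). At 49390 bp (48368803 to 48369003) it went from 12.9 ± 2.51 to 24.0 ± 5.07 (n = 4, ± SD; a change on the log2 scale of 0.84, adjusted p = 0.0352, limma-trend). This last peak rested on 6 to 35 reads per library, and its call was lost in 8 of 16 other fits, among them those without control replicate 1, 2 or 3 or paused replicate 2, 3 or 4 (log2 change 0.74 to 0.89, adjusted p at most 0.102). The Dppa2 peak nearest to a gene end, 622 bp inside it, held 11.3 ± 4.20 in control and 12.8 ± 5.02 in paused libraries (SD, n = 4; adjusted p = 0.775, limma-trend). Another weak peak inside Dppa2 (48313039 to 48313239) was not called either (log2 change 0.79, SE 0.28, adjusted p = 0.0507, limma-trend). It was called with the replicate number as a block (adjusted p = 0.0392), without control replicate 1 (0.0291) and without paused replicate 3 (0.0436). The remaining peaks inside the gene had log2 changes of 0.11 and 0.09.

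None of the 8 tested peaks of Dppa4 was called, with log2 changes from -0.64 to 0.27. Its strongest peak, 741 bp from the lower end (48282894 to 48283094), held 59.8, 60.9, 35.6 and 60.2 in control and 79.6, 50.5, 60.5 and 69.1 in paused libraries. The ranges overlapped (log2 change 0.27, SE 0.18, adjusted p = 0.316, limma-trend). A peak 135 bp inside the upper end was under the filter, with 11.3 ± 4.02 in control and 5.46 ± 2.81 in paused libraries (SD, n = 4), and was not tested. Another Dppa4 peak inside the gene and a Zfp42 peak were the other 2 untested ones.

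Dppa3 lies on chromosome 6 (122626424 to 122630271) between Gdf3 and Nanog. Its strongest peak, 1719 bp from the lower end of the span (122624605 to 122624805), held 134, 116, 173 and 168 in control and 178, 219, 251 and 235 in paused libraries. Every paused library lay above every control library, although paused replicate 1 was close to control replicate 3. The mean went from 148 ± 27.1 to 221 ± 31.7 (n = 4, ± SD; a change on the log2 scale of 0.59, SE 0.13, adjusted p = 0.00188, limma-trend), and the call held in all 17 other fits, with adjusted p at most 0.0363. The peak inside Dppa3 (122627655 to 122627855) held 82.6 ± 7.31 and 92.0 ± 16.7 (SD, n = 4) and was not called (log2 change 0.14, adjusted p = 0.561, limma-trend). The other 9 peaks had log2 changes from -0.39 to 0.24. The lowest of these were 2 peaks 25025 and 37621 bp from the gene, where all paused values lay below all control values, and neither was called (adjusted p = 0.258 and 0.0647, limma-trend). The farther of them was called lower after TMM rescaling (log2 change -0.49, adjusted p = 0.0243) and loess correction (-0.57, adjusted p = 0.0111), in edgeR with TMM (-0.47, adjusted p = 0.0219), among peaks of mean value 50 or more (-0.39, adjusted p = 0.0461) and without paused replicate 4 (-0.48, adjusted p = 0.0463).

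Dppa5a, a gene of 1148 bp on chromosome 9 (78367052 to 78368199), had no peak inside it and none within 5652 bp of an end. Its strongest peak, 8778 bp away (78358174 to 78358374), held 136, 125, 166 and 162 in control and 143, 137, 168 and 172 in paused libraries, with overlapping ranges (log2 change 0.08, SE 0.12, adjusted p = 0.731, limma-trend). The direction of that difference turned under TMM and loess scaling. On the other side of Dppa5a a stronger peak lay nearer to Ooep, a gene expressed in oocytes (chromosome 9, 78374950 to 78375150, 6851 bp from Dppa5a). It held 246, 262, 278 and 267 in control and 358, 360, 355 and 409 in paused libraries (log2 change 0.49, SE 0.10, adjusted p = 0.00109, limma-trend), without overlap, and was called in all 17 other fits.

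Utf1 (chromosome 7, 139943856 to 139945112) had 3 peaks, and none was called. The peak after its start site (139943971 to 139944171) held 162, 205, 222 and 188 in control and 183, 144, 188 and 198 in paused libraries. The ranges overlapped, with means of 194 ± 25.7 and 178 ± 23.9 (n = 4, ± SD; a change on the log2 scale of -0.13, SE 0.12, adjusted p = 0.532, limma-trend). The log2 change of this peak was below 0 in all 18 fits, from -0.33 to -0.03. The ratio of the Zfp42 to the Utf1 start peak, which does not depend on the factor per library, was 1.34, 0.85, 1.02 and 1.12 in control and 1.38, 1.95, 1.50 and 1.41 in paused libraries, apart by little and chosen after the values were seen. The other Utf1 peaks, 5071 and 12581 bp beyond the gene, had log2 changes of 0.32 and 0.49 (adjusted p = 0.0861 and 0.117, limma-trend). The farther of these was called without control replicate 2 (log2 change 0.67, adjusted p = 0.0430).

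Tdh (chromosome 14, 63492347 to 63509092) had 10 peaks, 7 of them inside the gene. Its strongest peak, inside the gene (63500266 to 63500466) and stronger than 97.9% of all peaks, held 246, 223, 288 and 275 in control and 287, 342, 349 and 302 in paused libraries. Control replicate 3 lay just above paused replicate 1 (log2 change 0.31, SE 0.11, adjusted p = 0.0491, limma-trend), and the call was lost in 11 of 17 other fits. Among these were the fits without control replicate 1, 2 or 4 or paused replicate 2, 3 or 4, where the log2 change was 0.25 to 0.34 and the adjusted p at most 0.142. The peak 218 bp inside the upper end (63508774 to 63508974) held 141, 137, 142 and 166 in control and 173, 169, 169 and 203 in paused libraries. The groups did not overlap, and the peak was not called (log2 change 0.28, SE 0.12, adjusted p = 0.106, limma-trend). Outside the gene, 3547 bp from its upper end (63512539 to 63512739), the mean went from 60.1 ± 16.2 to 89.7 ± 24.3 with overlapping groups (n = 4, ± SD; a change on the log2 scale of 0.57, adjusted p = 0.0278, limma-trend). That call was lost in 8 of 17 other fits, among them those without control replicate 1 or 3 or paused replicate 1, 2 or 4 (log2 change 0.41 to 0.55, adjusted p at most 0.143).

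In control cells the strongest peaks stood in the order Tdh (258 ± 29.0), Zfp42 (214 ± 27.8), Utf1 (194 ± 25.7), Dppa2 (150 ± 25.9), Dppa3 (148 ± 27.1), Dppa5a (147 ± 19.6) and Dppa4 (54.1 ± 12.4; SD, n = 4 each). Dppa2, Dppa3 and Dppa5a did not differ beyond their spread, nor did Zfp42 and Utf1, while Dppa4 lay below the others in every library. In paused cells Zfp42 (331 ± 14.0) and Tdh (320 ± 30.2) came first, within their spread of each other. Dppa3 followed (221 ± 31.7), then Dppa2 (185 ± 21.6), Utf1 (178 ± 23.9), Dppa5a (155 ± 17.5) and Dppa4 (64.9 ± 12.4; SD, n = 4 each).

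**Figure D3:**
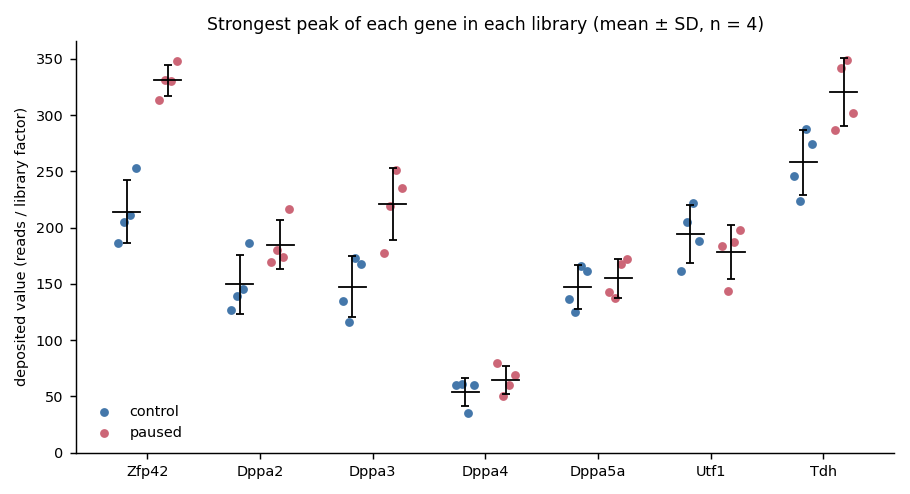
Deposited value of the strongest peak of each gene in each of the 4 control (blue) and 4 paused (red) libraries, with mean and SD, on an axis from 0. The groups are apart for Zfp42 and Dppa3 and overlap for the other 5 genes.

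Summed over all its peaks, a locus gives a single value per library. Zfp42 went from 1296 ± 99.0 to 1632 ± 100 (1.26-fold), Dppa2 from 454 ± 37.3 to 571 ± 65.5 (1.26-fold) and Tdh from 682 ± 32.0 to 838 ± 51.6 (1.23-fold; SD, n = 4 each), and in these 3 loci the groups did not overlap. The sum over all 134407 peaks was 1.12-fold higher in paused libraries. There too the groups did not overlap, with 7315541 to 7653989 in control and 8062921 to 8640948 in paused libraries. Dppa3 (1.14-fold), Utf1 (1.06-fold), Dppa5a (1.06-fold) and Dppa4 (1.05-fold) had overlapping groups. Under TMM rescaling the log2 ratios of Zfp42 and Dppa2 both went from 0.33 to 0.23, and under loess correction to 0.17 and 0.20.

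Change went with the strength of a peak. Among the 13 peaks of the 7 genes with a mean value over 100, 5 were called higher, and the median change was 0.31. Over all peaks of that strength 19.5% were called higher, with a median of 0.20. Among the 29 peaks between 30 and 100 there were 7 called higher, against 14.6% of all peaks of that strength, with medians of 0.19 and 0.13. Of the 24 weaker peaks 1 was called higher, against 4.39%, with medians of 0.05 and -0.04.

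**Figure D4:**
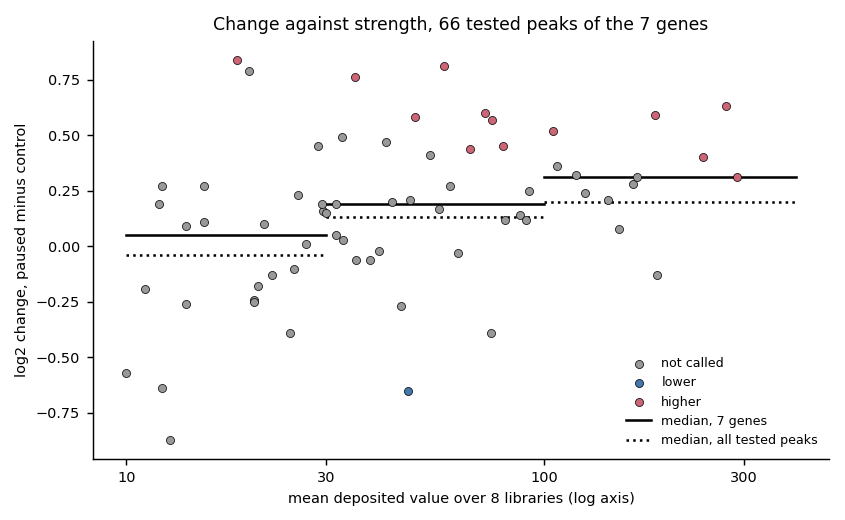
Log2 change against the mean deposited value (log axis) of the 66 tested peaks of the 7 genes, with the median of these peaks (solid) and of all tested peaks (dotted) in each of 3 strength bands. The medians of the 7 genes are 0.05, 0.19 and 0.31 from weak to strong.

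In the authors' deposited table, 11 of the 69 peaks had an FDR under 0.05, against 11.0% of all peaks in it, and 10 of these were called here in the same direction. Of the 14 peaks called here, 4 missed that threshold in the authors' deposited table: the Zfp42 peaks 27433 bp after (FDR 0.0623) and 26679 bp before the start site (0.121), and the Dppa2 peaks 1057 bp (0.0617) and 36393 bp (0.0503) from the gene. In the other direction the exception was the peak 638 bp from the far end of Zfp42, which had an FDR of 0.0446 in the authors' deposited table and an adjusted p of 0.0555 here with limma-trend. Both rest on the same libraries, so that the overlap is not independent evidence.

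Of the 44 peaks in the windows that lay nearer to another gene, 42 were tested, and 3 were called higher and 2 lower, with a median change of 0.08. Among all tested peaks 11.0% were called higher and 2.91% lower, with a median of 0.10. Beside the Ooep peak, the called peaks in the windows were a peak near Ddx43, a helicase gene (chromosome 9, 78389987 to 78390187), with a log2 change of 0.52 (adjusted p = 0.0165, limma-trend), and peaks near Kndc1, Spef1l and Omt2a. The Ddx43 call was lost in 5 of 17 other fits: DESeq2 (adjusted p = 0.205), TMM rescaling (0.0616), edgeR with TMM (0.0554), loess correction (0.136) and without paused replicate 2 (0.0744). The Spef1l peak (chromosome 7, 139970174 to 139970374) had a log2 change of -1.08 (adjusted p = 0.0405, limma-trend) and rested on 3 to 50 reads per library. Its call was lost in 8 of 16 other fits, in DESeq2 (adjusted p = 0.0858), after loess correction (adjusted p = 0.132) and without control replicate 1, 2 or 3 or paused replicate 1, 3 or 4 (log2 change -1.15 to -0.89, adjusted p at most 0.159). The Kndc1 peak was called higher, and the Spef1l and Omt2a peaks lower.

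Other genes of the naive state, of the states that follow it, of the route around Tdh and around Dppa2 and Dppa4 were taken from lists by their known roles. For 22 naive pluripotency genes, 39 of 271 tested peaks (14.4%) were called higher and 4 lower, with a median change of 0.15. For 11 formative and primed genes the counts were 12 and 6 of 125 (9.60%; median 0.09), and for 11 genes of the threonine and glycine route 5 and 3 of 50 (10.0%; median 0.16). For 12 partners and reported targets of Dppa2 and Dppa4, of which 6 had a tested peak, 8 of 46 were called higher (17.4%) and 0 lower, with a median of 0.21. In that list 3 of the calls were near Zfp352, and 30 of the peaks, with 2 of the calls, were near Morc1. Dnmt3l, with 2 more of the calls, is also in the naive list. All tested peaks gave 11.0% higher with a median of 0.10, as above.

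For each member with a peak within 2 kb of an end, the genes whose gene-end peak varied most like it over the 8 libraries were sought among 11325 genes, with library medians subtracted. They were Tcn2 and Slc25a23 for Zfp42 (Pearson r 0.984 and 0.973), Adra2b and Chek2 for Dppa3 (0.991 and 0.985) and Glis2 and Hspb11 for Dppa4 (0.976 and 0.969). For Tdh they were Qars and Uqcrh (0.963 and 0.955), for Utf1 Afdn (0.954), and for Dppa2 Slc27a1 and Rpl39l (0.935 and 0.919). These are the highest of many correlations over 8 points that share libraries, depth and the division into 2 groups.

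**Figure D5:**
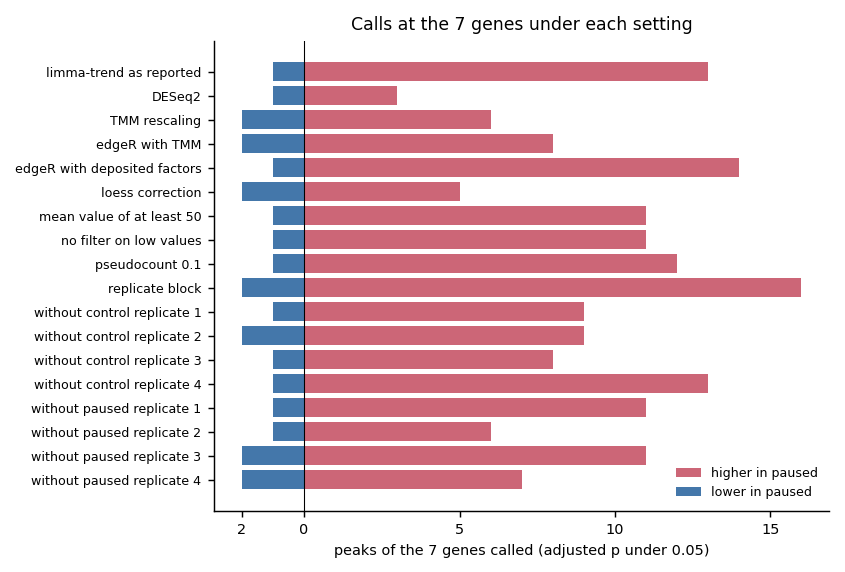
Number of peaks of the 7 genes called higher (red, to the right) or lower (blue, to the left) in paused cells under the reported limma-trend fit and 17 other fits. The count of higher peaks runs from 3 in DESeq2 to 16 with the replicate number as a block, and 1 or 2 are called lower in each fit. Of all tested peaks, 3.06% were called higher in DESeq2 and 13.6% with the block, against 11.0% in the reported fit.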

How the data were processed

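ATAC-seq of 4 control and 4 paused libraries was analysed from the deposited table of 134407 peaks. Per the submitters' processing notes, FastQC, Trim Galore, Bowtie2 2.4.1, MACS3 3.0.3 and DiffBind 3.16.0 were used with build mm10, in no stated role. The table deposited by the authors holds a signal per library: every value was a whole multiple of a step per library within 0.01, so reads were recovered for 100% of values. The authors also deposited log2 means and folds, p-values and FDR, used only where their table is named. Depth is the recovered reads in peaks, 4434037 to 21161767 per library, and 0 reads allow up to 3, a value of 1.04 to 5.08. No per-library columns were left unused (0).

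limma-trend (limma 3.58.1, R 4.3.3) was fitted to log2(value + 1) without covariates over peaks whose mean value reached 10. edgeR 4.0.16 and DESeq2 1.42.0 on recovered reads, pseudocount 0.1, other filters, TMM and loess (span 0.3) scaling, a replicate block and each library left out were alternatives. On the recovered reads edgeR called 16424 peaks higher and 4621 lower with the deposited factors, and 9084 and 7058 with TMM. Of the fits, only limma-trend and edgeR with TMM were run on simulated data first. The planted changes were larger than those of the called peaks of the 7 genes, so the run does not show how well such changes are found. Gene spans came from GRCm38.p6 (21887 protein-coding genes), and RefSeq start windows matched 2 of the 7 genes. In 1892 pairs of overlapping windows on opposite strands the sequences were reverse complements in every case.

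Named peaks were, for each gene, the peak nearest its start site or an end, the strongest peak and each called peak, and the 3 best called peaks of other genes. The genes and lists were chosen with earlier results of these data known. For Utf1, 1 of the 2 genes most like it is not reported here.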

Additional observations from a re-analysis of the deposited data

Results flagged for a closer look

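In 5 of the 66 groups of 4 values looked at, a single library stood far from the other 3, where chance alone gives about 1 in 20. They were the Zfp42 start peak in paused replicate 1 (253.8, below the other paused values), the strongest Dppa4 peak in control replicate 3 (35.6, below the other control values), the Tdh peak 218 bp inside the gene in control replicate 4 (166.1) and in paused replicate 4 (202.7), both above their groups, and the Ooep peak in paused replicate 4 (408.9, above its group).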

How the results depend on the processing

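Against 14 called peaks, DESeq2 called 4, TMM rescaling 8, loess correction 7 and a window of 10 kb 6, and fits with a library left out 7 to 14. The 10 kb window kept the same fit and took 40 tested peaks in place of 66. In the other settings named, the share of all tested peaks called higher fell as well. Called higher were 3.06% in DESeq2, 5.99% after TMM rescaling, 5.10% after loess correction and 7.02% to 9.99% with a library left out, against 11.0%. The median change of 0.19 became 0.08 in DESeq2, 0.09 after TMM rescaling, 0.07 in edgeR with TMM, 0.08 after loess correction and 0.31 over peaks of mean value 50 or more. In the same order, the median over all tested peaks went from 0.10 to -0.01, 0.00, -0.01, -0.01 and 0.18. The log2 ratio of the summed values became 0.23 (Zfp42 and Dppa2) and 0.19 (Tdh) after TMM rescaling, and 0.17 (Zfp42), 0.20 (Dppa2), 0.01 (Dppa3), -0.09 (Dppa5a), -0.11 (Utf1) and 0.13 (Tdh) after loess correction, and for Dppa3 0.33 with the 10 kb window. Direction turned for the strongest Dppa5a peak (-0.01 in DESeq2, -0.03 after TMM rescaling, -0.01 in edgeR with TMM, -0.13 after loess correction) and the peak inside Dppa3 (-0.05 after loess correction). The Dppa2 peak nearest an end ran from -0.12 to 0.32 with a library left out. The cause was not tested, beyond the smaller number of peaks or libraries where the setting itself reduces it. Of the 14 called peaks, 4 were called in the same direction in every fit that tested them: those of Zfp42 at 43320874, 43279476 and 43331728, and that of Dppa3 at 122624605.

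With the replicate number as a replicate block, 18 peaks were called (16 higher, 2 lower), the 14 among them, with the strongest Dppa2 peak (adjusted p = 0.0395) among the additions. Over all tested peaks the calls went from 13958 higher and 3702 lower to 17371 and 4623. Deviations of libraries with the same number correlated with r = 0.079, 0.0358, 0.133 and 0.0395, and control replicates 1, 3 and 4, but not 2 (best with paused replicate 1, 0.0703), correlated best with their own number. Only 1 of these values passed 0.1, the limit set for every pair. The numbers are also not stated to mark a shared culture or day, so they were not taken as pairs. Whether libraries of the same number shared a culture or day cannot be told from these values. Depth limits the weak peaks most: a count of 0 allows a value of up to 5.08 in control replicate 3, and these limits cover counting error only, since PCR copies are not independent molecules.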
